A study of Mus musculus with 4 samples.

Results

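The common gamma chain cytokine receptors of natural killer (NK) cells are described here as 8 receptor genes, found by their NCBI Gene numbers among the 17723 genes that had a value above 0 in at least 1 library. They are Il7r (16197), Il2ra (16184), Il2rb (16185), Il2rg (16186), Il15ra (16169), Il4ra (16190), Il21r (60504) and Il9r (16199), and all 8 had a value in every library. NK cells, innate lymphocytes that kill leukaemia cells, were sorted from the spleens of C57BL/6J mice of 6-8 weeks by surface DNAM-1, an activating receptor encoded by Cd226. The 4 groups, of 1 RNA-seq library each, are DNAM-1+ and DNAM-1- NK cells from AML spleen at day 17 after transfer of GFP+ MLL-AF9 acute myeloid leukaemia cells, and DNAM-1+ and DNAM-1- NK cells from normal spleen at day 0. Recipients were not irradiated, and by the labels all of them developed AML and survived 35 to 40 days. The labels do not give the other sorting gates, the purity, the number of mice in a library, or whether the mice that gave DNAM-1+ and DNAM-1- cells were the same ones.

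Il2rg encodes the common gamma chain, which carries Jak3 and is shared by the receptors of IL-2, IL-4, IL-7, IL-9, IL-15 and IL-21. Each receptor adds chains of its own: Il2rb serves IL-2 and IL-15, Il2ra and Il15ra raise the affinity for those cytokines, and the products of Il7r, Il4ra, Il9r and Il21r each pair with the common gamma chain. In mice IL-15 sustains conventional NK cells, whereas a high level of the IL-7 receptor is known from other innate lymphoid cells, from T cells and from an NK population of thymic origin.

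Levels are the deposited FPKM, which are fragment counts scaled for transcript length and library size, so levels of different genes can be compared per length. Depth was estimated at 8800000, 8700000, 8900000 and 8700000 fragments in DNAM-1+ AML, DNAM-1- AML, DNAM-1+ normal and DNAM-1- normal libraries, and the libraries list 15460 to 16161 genes. Cd226 was at 36.1 FPKM in DNAM-1+ AML and 0.58 FPKM in DNAM-1- AML cells, and at 38.6 FPKM in DNAM-1+ normal and 0.45 FPKM in DNAM-1- normal cells, so each library carries the Cd226 level of its label. The NK receptor genes Ncr1 and Klrb1c lay between 318 and 597 FPKM in all 4 libraries. With 1 library in a group there is no replicate check of a difference between 2 libraries. Ratios within a spleen are therefore given with a 95% interval for counting error alone, and the sole test is limma on log2(FPKM + 1) over all 4 libraries, which asks whether the mean subset difference over both spleens differs from 0. Its spread comes from 1 residual degree of freedom, the difference between the spleens, shared across 9074 genes at 5 FPKM or more in the highest library.

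The 8 genes covered a wide range of levels and kept much of their order across libraries. Il2rb averaged 730 FPKM over the 4 libraries and Il2rg 387 FPKM, and neither range met the other or that of any other member. Il2rb stood above 99.4% to 99.6% of the protein-coding genes listed in its library, and Il2rg above 98.9% to 99.0%. Il4ra averaged 24.2 FPKM, Il21r 22.6 FPKM and Il7r 20.3 FPKM, Il15ra averaged 8.63 FPKM, Il2ra 4.38 FPKM and Il9r 3.10 FPKM. The ranges of Il4ra and Il21r nearly coincided, those of Il2ra and Il9r overlapped, and the range of Il7r spanned all of the members below Il2rg except the lowest Il9r values. In both DNAM-1+ libraries Il7r had rank 3 and Il9r rank 8 of the 8, and in both DNAM-1- libraries Il7r had rank 8 and Il9r rank 6.

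**Figure D1:**
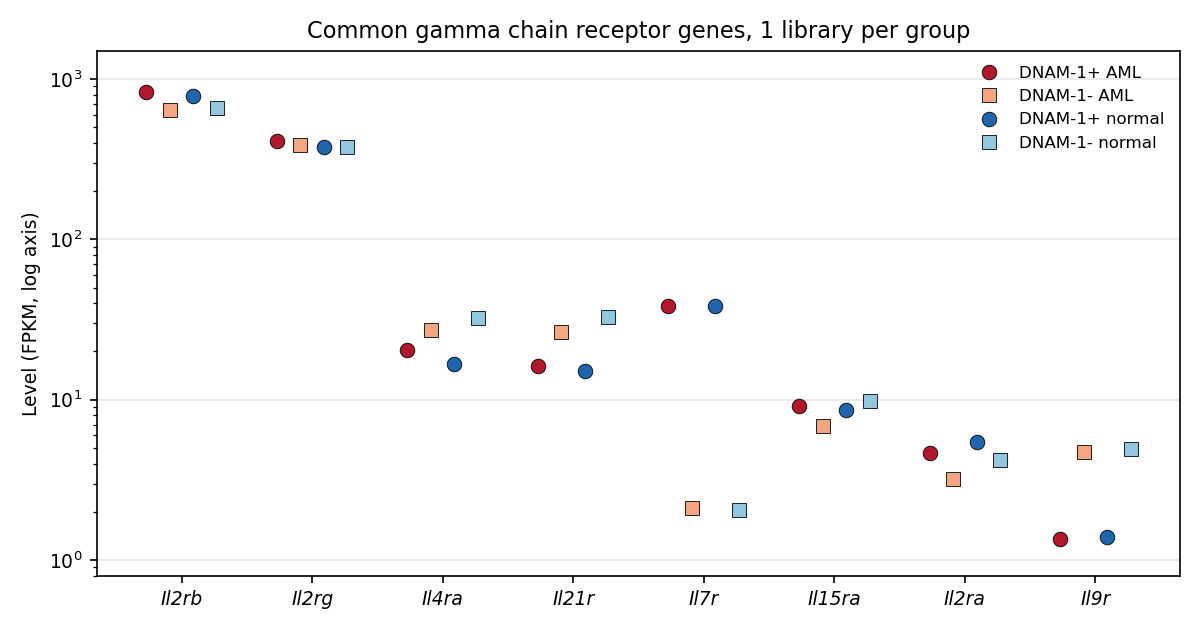
FPKM of the 8 receptor genes (log axis) in the 4 libraries, 1 point per library, with genes ordered by mean level. Il2rb and Il2rg lie above all other members in every library, and Il7r has its DNAM-1+ libraries at 38.7 and 38.5 FPKM and its DNAM-1- libraries at 2.10 and 2.06 FPKM.

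Il7r, the alpha chain of the IL-7 receptor and also a chain of the TSLP receptor, was high in DNAM-1+ and low in DNAM-1- cells of both spleens. In AML spleen it was at 38.7 FPKM in DNAM-1+ cells and 2.10 FPKM in DNAM-1- cells, about 1192 and 64 fragments. In normal spleen it was at 38.5 FPKM in DNAM-1+ cells and 2.06 FPKM in DNAM-1- cells, about 1200 and 63 fragments. The 2 high libraries are the DNAM-1+ ones, and the levels of the subsets do not overlap. The share of all genes separated in this way was not counted, here or for the members below, so the separation alone does not set a gene apart. DNAM-1+ cells thus had 18.4 times the FPKM of DNAM-1- cells in AML spleen (counting interval 14.3 to 23.7) and 18.7 times in normal spleen (14.5 to 24.1). In bulk RNA, fewer cells that express a gene and less RNA per cell cannot be told apart. On the log2(FPKM + 1) scale, which understates differences of low genes, the ratios were 3.68 (3.42 to 3.93) in AML spleen and 3.69 (3.44 to 3.94) in normal spleen. Il7r rose in DNAM-1+ cells over both spleens by 3.68 (SE 0.08, 95% interval 3.48 to 3.88), with a limma adjusted p of 2.21e-05 over all 9074 genes, and 99.98% of the genes tested had a lower difference. Il7r reached the floor of the test through its DNAM-1+ libraries alone. The direction was the same under every alternative, and the call was lost in 1 of them, the fit without a floor on low genes (adjusted p = 0.117).

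Il7r lies on chromosome 15 on the minus strand, between Capsl and Spef2, and the start-proximal sequence is shown because Il7r has the widest subset difference of the family. The 250 bases before the RefSeq start (GRCm38.p6, chr15:9529877-9530126, minus strand, 5′ to 3′) are printed with matches to any of 4 motifs in capitals, searched on both strands: the ETS core GGAAG, the RUNX core TGTGGT, the FOXO core GTAAACA and the STAT motif TTCNNNGAA.
Il7r: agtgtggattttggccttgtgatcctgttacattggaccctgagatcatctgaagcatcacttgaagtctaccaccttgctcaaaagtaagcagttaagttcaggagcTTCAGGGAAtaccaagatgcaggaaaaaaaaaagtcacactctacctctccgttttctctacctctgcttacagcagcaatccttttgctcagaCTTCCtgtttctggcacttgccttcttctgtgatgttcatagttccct
The capitals in Il7r are an ETS core read on the other strand, CTTCC, which begins 48 bases before the start, and a STAT match, TTCAGGGAA, which begins 142 bases before it. Over 32851 mouse promoters of this length, 64.1% hold the ETS core, 14.0% the RUNX core, 3.17% the FOXO core and 7.02% the STAT motif. Promoters were at hand for 7 of the 8 members, and of these genes 5 hold the ETS core, 3 the RUNX core, 1 the FOXO core and 1 the STAT motif. The matches describe letters, not binding.

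The genes whose 4 library values ran closest to those of Il7r were Podnl1, Cd226 itself, Apol7b, Cd200r1, Acpp and Cd3e. Likeness is the Euclidean distance between log2(FPKM + 1) values centred on each gene's own mean over the 4 libraries, among 8505 other protein-coding genes. The distance was 0.935 for Podnl1, 0.984 for Cd226 and 1.68 for Cd3e, beside a median of 3.67 over all genes compared. Podnl1 was at 11.4 FPKM in DNAM-1+ AML, 0.54 in DNAM-1- AML, 10.7 in DNAM-1+ normal and 0.97 FPKM in DNAM-1- normal cells. Cd200r1, a receptor gene known from type 1 innate lymphoid cells (ILC1), was at 5.43, 0.35, 5.31 and 0.61 FPKM in the same order. Because 4 libraries of 2 subsets make up the pattern, any gene high in both DNAM-1+ libraries comes out as alike.

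Most tested markers of T cells and of ILC1 moved with Il7r, those of ILC3 and lymphoid progenitors went both ways, and few ILC2 markers reached the floor. Of 9 T cell marker genes tested, 7 rose and 0 fell in the DNAM-1+ subset, with a median log2 difference of 0.80, beside 0.01 over all genes tested. Over all genes tested 7.35% rose and 8.38% fell, a share to set beside each marker count here. Cd3e and Trat1 reached the floor through DNAM-1+ libraries alone. The whole list of 17 genes, in which Lck and Cd247, also abundant in NK cells, hold the largest part, summed to 655 FPKM in DNAM-1+ AML and 490.0 FPKM in DNAM-1- AML cells, and 661 FPKM in DNAM-1+ normal and 475 FPKM in DNAM-1- normal cells. Cd3e, a chain of the T cell receptor complex, was at 8.95 FPKM in DNAM-1+ AML, 1.25 in DNAM-1- AML, 9.22 in DNAM-1+ normal and 1.74 FPKM in DNAM-1- normal cells. The T cell receptor constant genes Trac, Trbc1 and Trbc2 had no value in any library and were taken as 0. The annotation is not given, so genes left out of it and genes without RNA cannot be told apart here. Cd4 lay between 0.75 and 1.38 FPKM, and Cd8a between 2.17 and 3.70 FPKM. Cd8b1 went the other way, at 0.67, 2.11, 2.28 and 5.32 FPKM in the same order of libraries, and was not called (difference -0.92, limma adjusted p = 0.117). Of 7 ILC1 markers tested, Il7r among them, 5 rose and 0 fell, with a median of 1.47, and all 5 reached the floor through DNAM-1+ libraries alone. Cd69 and Tmem176a were not called (differences -0.25 and 0.03), and Cd69 was lower in DNAM-1+ cells of both spleens. Zfp683, also on the list, had no value in any library. The whole ILC1 list of 9 genes summed to 102 FPKM in DNAM-1+ AML and 46.6 FPKM in DNAM-1- AML cells, and 98.9 FPKM in DNAM-1+ normal and 42.4 FPKM in DNAM-1- normal cells, with Il7r itself the largest part of both DNAM-1+ sums. Itga1, which encodes CD49a, was at 5.34, 1.99, 5.36 and 1.13 FPKM in that order of libraries, and Cxcr6 at 3.95, 0.35, 3.27 and 0.30 FPKM. Of 2 ILC2 markers tested, 1 rose and 0 fell. That one was Gata3 (36.2, 27.9, 36.3 and 26.6 FPKM), and Klrg1 was not called. Rora, below the floor and so not tested, was also higher in DNAM-1+ cells (3.98, 0.80, 4.29 and 0.81 FPKM). Il1rl1 lay between 0.81 and 1.22 FPKM, and Areg and Il13 had no value. Of 4 ILC3 and lymphoid tissue inducer markers tested, 2 rose and 2 fell (median -0.72), and the cytokine gene Il22 had no value in any library. Kit, a receptor gene of progenitors, ILC2 and ILC3, rose (25.3, 9.78, 17.9 and 7.86 FPKM), as did Ltb by 0.35 (limma adjusted p = 0.0128), whereas the chemokine receptor genes Ccr6 and Cxcr5 fell by 1.82 and 1.79 (adjusted p = 0.00134 and 3.9e-05). Of 4 lymphoid progenitor markers tested, Kit and Il7r rose and Ly6d and Ly6a fell, by 2.25 and 1.88 (adjusted p = 3.22e-05 and 0.000452), and Rag1 and Dntt stayed at or below 0.10 FPKM. Of 2 leukaemia and myeloid progenitor markers tested, Kit rose and Myb was not called. The part of such cells in the Il7r difference was not tested.

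Il2rb and Il2rg, the signalling chains of the IL-2 and IL-15 receptors, were abundant in all 4 libraries, and their differences were small. Il2rb was at 833 FPKM in DNAM-1+ AML and 643 FPKM in DNAM-1- AML cells, and at 784 FPKM in DNAM-1+ normal and 659.6 FPKM in DNAM-1- normal cells. Both DNAM-1+ libraries lie above both DNAM-1- libraries, by 1.30 times in AML spleen (counting interval 1.27 to 1.32) and 1.19 times in normal spleen (1.17 to 1.21). Il2rb rose by 0.31 on the log2 scale (SE 0.06, 95% interval 0.16 to 0.46, limma adjusted p = 0.0213). That call did not hold when any 1 of the 4 libraries was left out (adjusted p = 0.138 to 0.298, differences 0.27 to 0.35), without the mean-variance trend (0.0948), with subset as the sole term (0.0555), without a floor (0.204), or with libraries scaled to the NK lineage genes, where the difference was 0.16 (0.123). Of 12 NK lineage markers, 3 rose and 0 fell (median 0.15), where 7.35% of all genes tested rose and 8.38% fell. The 3 were Ncr1 by 0.54 (limma adjusted p = 0.00215), Tbx21 by 0.38 (0.00792) and Klrk1 by 0.33 (0.0157). Of the 9 not called, Nkg7, Prf1 and Eomes had differences below 0 (-0.19, -0.10 and -0.02) and the rest above 0. The part of a higher share of NK cells in the Il2rb difference was not tested. Il2rg was at 410 FPKM in DNAM-1+ AML and 388 FPKM in DNAM-1- AML cells, and at 375 FPKM in DNAM-1+ normal and 376 FPKM in DNAM-1- normal cells. The limma difference of Il2rg was 0.04 (95% interval -0.11 to 0.18, adjusted p = 0.720) and took the other sign, -0.12, under the NK lineage scaling, and -0.03 without the DNAM-1+ AML library. The ratio of Il2rb to Il2rg FPKM was 2.03 in DNAM-1+ AML and 1.66 in DNAM-1- AML cells, and 2.09 in DNAM-1+ normal and 1.75 in DNAM-1- normal cells.

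Il2ra and Il15ra, the high-affinity alpha chains of the IL-2 and IL-15 receptors, were low and were not called. Il2ra, which encodes CD25, was at 4.65 FPKM in DNAM-1+ AML and 3.20 FPKM in DNAM-1- AML cells, and at 5.44 FPKM in DNAM-1+ normal and 4.24 FPKM in DNAM-1- normal cells. It is higher in the DNAM-1+ library of each spleen, with log2 ratios of 0.43 (0.17 to 0.69) in AML and 0.30 (0.05 to 0.54) in normal spleen, and it passed the floor of the test through the DNAM-1+ normal library alone. The limma difference of Il2ra was 0.36 (95% interval -0.04 to 0.77, adjusted p = 0.209). Foxp3, which defines the regulatory T cells that carry much CD25, lay between 0.73 and 1.05 FPKM, and its highest value was in DNAM-1- AML cells. Of 2 regulatory T cell markers tested, Il2ra itself was not called and Tnfrsf18, which NK cells also express, rose by 0.54 (adjusted p = 0.00284), with 53.1 FPKM in DNAM-1+ AML and 35.3 FPKM in DNAM-1- AML cells, and 48.7 FPKM in DNAM-1+ normal and 34.1 FPKM in DNAM-1- normal cells. Il15ra was at 9.19 FPKM in DNAM-1+ AML and 6.88 FPKM in DNAM-1- AML cells, and at 8.67 FPKM in DNAM-1+ normal and 9.77 FPKM in DNAM-1- normal cells. The order of the subsets is opposite in the spleens for Il15ra, with log2 ratios of 0.37 (0.06 to 0.68) in AML and -0.16 (-0.45 to 0.14) in normal spleen. Its limma difference was 0.11 (95% interval -0.23 to 0.45, adjusted p = 0.662), and -0.12 without the DNAM-1- AML library. Il2rb exceeded Il2ra by 144 to 201 times and Il15ra by 67.5 to 93.5 times in FPKM.

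Il4ra and Il21r, which encode the receptor chains for IL-4 and IL-21, were lower in DNAM-1+ cells of both spleens. Il4ra was at 20.4 FPKM in DNAM-1+ AML and 27.0 FPKM in DNAM-1- AML cells, and at 16.7 FPKM in DNAM-1+ normal and 32.5 FPKM in DNAM-1- normal cells. Il21r was at 16.2 FPKM in DNAM-1+ AML and 26.3 FPKM in DNAM-1- AML cells, and at 15.2 FPKM in DNAM-1+ normal and 32.6 FPKM in DNAM-1- normal cells. The subsets do not overlap in either gene, a separation that was not counted over all genes. The log2 ratio of Il4ra was -0.39 (-0.51 to -0.27) in AML and -0.92 (-1.04 to -0.80) in normal spleen, and that of Il21r -0.67 (-0.85 to -0.49) in AML and -1.06 (-1.23 to -0.88) in normal spleen. Over both spleens Il4ra fell by 0.65 (SE 0.12, 95% interval -0.95 to -0.36, limma adjusted p = 0.0170) and Il21r fell by 0.86 (SE 0.10, 95% interval -1.11 to -0.62, adjusted p = 0.00272). The Il4ra call was lost without the DNAM-1- AML, DNAM-1+ normal or DNAM-1- normal library (differences -0.78, -0.52 and -0.53, adjusted p = 0.0592, 0.138 and 0.169), with a floor of 1 FPKM (0.0501), without a floor (0.235) and without the trend (0.0810). The Il21r call was lost without the DNAM-1+ normal library (-0.82, adjusted p = 0.0633) and without a floor (0.153).

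Il4ra and Il21r are neighbouring genes on chromosome 7, and both fell, so the 250 bases before each start are shown (GRCm38.p6, plus strand, chr7:125552021-125552270 for Il4ra and chr7:125603179-125603428 for Il21r), with the same 4 motifs in capitals.
Il4ra: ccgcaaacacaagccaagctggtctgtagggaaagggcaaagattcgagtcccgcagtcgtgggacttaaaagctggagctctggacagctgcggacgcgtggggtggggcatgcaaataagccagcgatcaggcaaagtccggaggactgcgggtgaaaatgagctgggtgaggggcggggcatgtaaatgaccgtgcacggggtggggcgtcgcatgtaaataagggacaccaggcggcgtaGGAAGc
Il21r: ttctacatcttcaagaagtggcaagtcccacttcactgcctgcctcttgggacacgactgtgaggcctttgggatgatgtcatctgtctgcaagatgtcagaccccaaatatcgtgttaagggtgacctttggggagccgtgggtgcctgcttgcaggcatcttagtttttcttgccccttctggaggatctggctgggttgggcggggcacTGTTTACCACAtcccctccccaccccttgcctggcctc
The Il4ra window holds an ETS core that begins 6 bases before the start and none of the other 3 motifs. The Il21r window holds a FOXO core, TGTTTAC, that begins 38 bases before the start and overlaps a RUNX core, ACCACA, that begins at 33, and it holds neither the ETS core nor the STAT motif. The neighbouring pair Il2ra and Il15ra on chromosome 2 had no called member.

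Il9r, the IL-9 receptor chain, was the lowest member in DNAM-1+ cells. It was at 1.35 FPKM in DNAM-1+ AML and 4.74 FPKM in DNAM-1- AML cells, about 53 and 183 fragments, and at 1.40 FPKM in DNAM-1+ normal and 4.90 FPKM in DNAM-1- normal cells, about 55 and 190 fragments. Both DNAM-1- libraries lie above both DNAM-1+ libraries, by 3.51 times in AML and 3.50 times in normal spleen. The log2 ratio was -1.29 (-1.57 to -1.01) in AML and -1.30 (-1.58 to -1.02) in normal spleen. Il9r was below 5 FPKM in every library and so was not tested, and in the alternative with a floor of 1 FPKM it fell by 1.29 (SE 0.13, 95% interval -1.63 to -0.95, limma adjusted p = 0.00762).

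Most tested markers of B cells and myeloid cells moved with the 3 receptors that were lower in DNAM-1+ cells. Over all genes tested 8.38% fell and 7.35% rose, a share to set beside each marker count here. All 14 B cell markers tested fell in DNAM-1+ cells, with a median of -2.08. The list summed to 276 FPKM in DNAM-1+ AML and 1164 FPKM in DNAM-1- AML cells, and 249.6 FPKM in DNAM-1+ normal and 1210 FPKM in DNAM-1- normal cells. Cd79a, a chain of the B cell receptor, was at 88.0, 399.7, 73.0 and 395 FPKM in DNAM-1+ AML, DNAM-1- AML, DNAM-1+ normal and DNAM-1- normal cells. Of 12 monocyte markers tested, 8 fell and 1 rose, with a median of -1.86, and the whole list of 14 summed to 1102, 1596, 961 and 1538 FPKM in that order. Spn held the largest part of each sum (428, 424, 382 and 371 FPKM), and Spn, Itgam and Ly6c2 were not called. Lyz2, a lysozyme gene of myeloid cells, was at 41.9, 254, 29.3 and 239 FPKM. All 9 macrophage markers tested fell, with a median of -1.37, and the whole list of 10, in which Apoe holds the largest part, summed to 84.8, 379, 78.8 and 465 FPKM. Plasma cell markers fell in 4 of 5 (median -1.60), dendritic cell markers in 3 of 5 (median -1.24) and neutrophil markers in all 5 tested (median -0.87). Among the genes closest to Il4ra, Il21r and Il9r in pattern were Msrb1 and Rgs10 for Il4ra (distances 0.0721 and 0.0800), Axl and Lyn for Il21r (0.0379 and 0.0628), and Swap70 and Slc12a2 for Il9r (0.0580 and 0.0920). Lyn, a kinase gene of B cells and myeloid cells, was at 36.6 FPKM in DNAM-1+ AML and 62.4 FPKM in DNAM-1- AML cells, and at 35.5 FPKM in DNAM-1+ normal and 73.8 FPKM in DNAM-1- normal cells. Klra4, a Ly49 receptor gene of NK cells, was also among the 4 genes closest to Il9r (distance 0.106), at 277, 646, 295 and 667 FPKM. Of the called markers, 2 for B cells, 4 for macrophages, 2 for neutrophils and 1 each for monocytes, plasma cells and dendritic cells reached the floor through DNAM-1- libraries alone. The part of B cells and myeloid cells in the lower Il4ra, Il21r and Il9r levels was not tested.

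**Figure D2:**
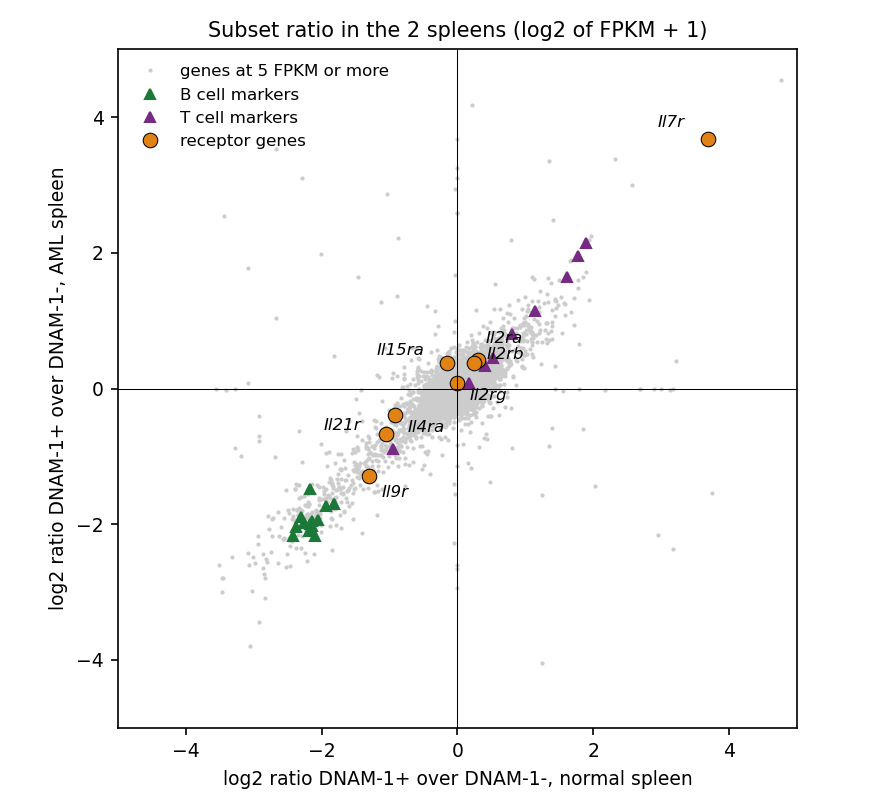
Log2 ratio of FPKM + 1 between DNAM-1+ and DNAM-1- cells in AML spleen (vertical) and normal spleen (horizontal) for genes at 5 FPKM or more, with the 8 receptor genes, B cell markers and T cell markers overlaid. Il7r lies at 3.68 in AML and 3.69 in normal spleen, above every T cell marker, and Il4ra, Il21r and Il9r lie between 0 and the B cell markers, which fell with a median of -2.08.

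Over the family, 7 of 8 members were tested, and 2 rose (Il7r, Il2rb), 2 fell (Il4ra, Il21r) and 3 were not called (Il2ra, Il2rg, Il15ra). Over all genes tested, the share that rose in DNAM-1+ cells was 7.35% (667 genes), and the share that fell was 8.38% (760 genes). Those background counts were 1042 and 690 with libraries scaled to the median of coding genes, and 321 and 1811 with libraries scaled to the NK lineage genes, which moved the median difference of all genes to 0.06 and to -0.13. By the 2-fold rule, an absolute log2 ratio of 1 with 5 FPKM in the higher library, Il7r was the 1 member higher in DNAM-1+ cells of AML spleen, where 0.894% of genes were higher, and 0 members were lower, where 3.19% of genes were. In normal spleen Il7r was again the 1 member higher, where 1.28% of genes were, and Il21r the 1 member lower, where 3.97% of genes were. Il9r, with log2 ratios of -1.29 in AML and -1.30 in normal spleen, stayed out of these counts because it was below 5 FPKM in every library. Summed over the 8 genes, FPKM came to 1334 in DNAM-1+ AML and 1101 in DNAM-1- AML cells, and to 1245 in DNAM-1+ normal and 1122 in DNAM-1- normal cells. Il7r made up 2.90% of the sum in DNAM-1+ AML and 0.191% in DNAM-1- AML cells, and 3.09% in DNAM-1+ normal and 0.184% in DNAM-1- normal cells. The 5 members other than Il2rb, Il2rg and Il7r made up 3.88% in DNAM-1+ AML and 6.19% in DNAM-1- AML cells, and 3.81% in DNAM-1+ normal and 7.49% in DNAM-1- normal cells.

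**Figure D3:**
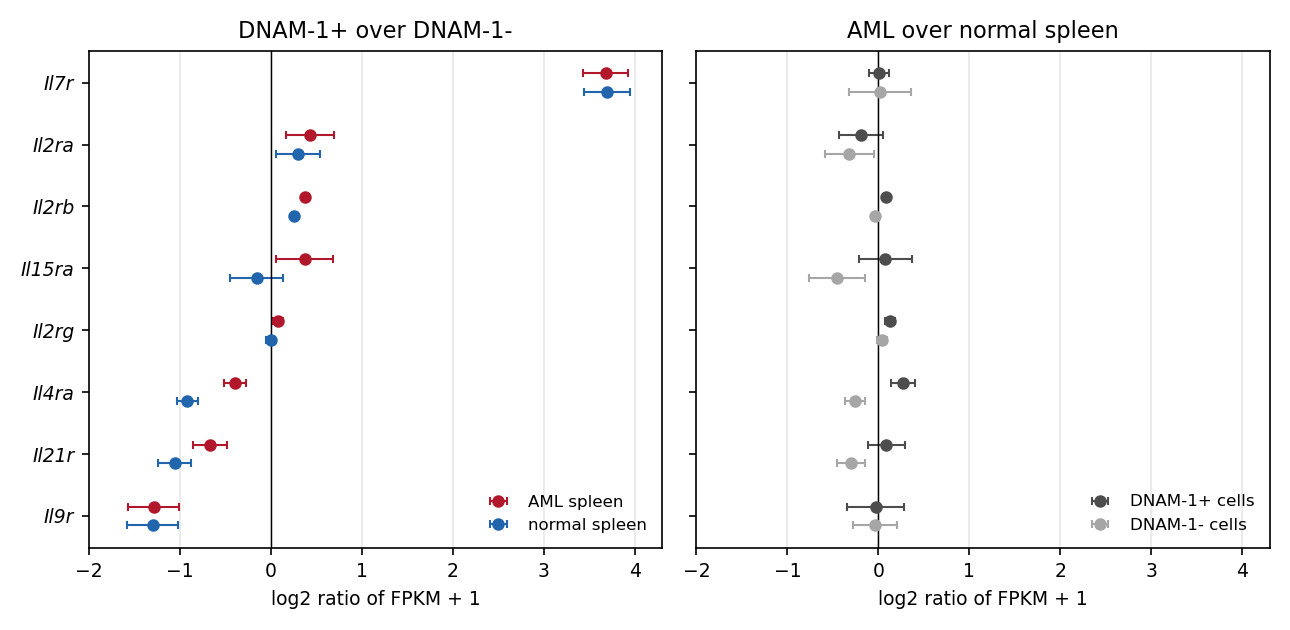
Log2 ratios of FPKM + 1 for the 8 receptor genes, between DNAM-1+ and DNAM-1- cells in each spleen (left) and between AML and normal spleen in each subset (right), 1 library per group, with bars for the 95% interval of counting error alone. The subset ratios run from -1.30 (Il9r, normal spleen) to 3.69 (Il7r, normal spleen), and the widest ratio between spleens is -0.45 (Il15ra, DNAM-1- cells).

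Between AML and normal spleen no member was called, and no ratio passed the 2-fold rule. The log2 ratio of Il7r was 0.01 for DNAM-1+ and 0.02 for DNAM-1- cells, and that of Il9r -0.03 for DNAM-1+ and -0.04 for DNAM-1- cells. The widest ratios were in DNAM-1- cells, -0.45 (-0.76 to -0.14) for Il15ra, -0.32 (-0.58 to -0.05) for Il2ra and -0.30 (-0.46 to -0.15) for Il21r, and in DNAM-1+ cells the widest was 0.27 (0.14 to 0.40) for Il4ra. In DNAM-1- cells Il4ra was at -0.26 (-0.36 to -0.15). There 2.30%, 4.96%, 5.52% and 7.55% of genes at the floor had a lower ratio than Il15ra, Il2ra, Il21r and Il4ra. For Il7r, Il2rb, Il2rg and Il9r these shares ran from 39.5% to 62.9%. By limma 0 of 7 members rose and 0 fell, where 0.0661% of all genes rose and 0.287% fell, and 0 members had an unadjusted p below 0.05. The limma intervals of the AML difference ran from -0.19 to 0.21 for Il7r, from -0.12 to 0.18 for Il2rb, from -0.66 to 0.15 for Il2ra and from -0.29 to 0.30 for Il4ra, so differences inside them are not excluded. By the 2-fold rule 0 members were past the fold in either direction. The background was 0.311% of genes higher and 0.346% lower in AML for DNAM-1+ cells, and 0.193% higher and 0.397% lower for DNAM-1- cells. Spleen and day cannot be told apart, because normal spleen is day 0 and AML spleen is day 17. Of the leukaemia and myeloid progenitor list, Mpo was at 1.58 FPKM in DNAM-1+ AML and 2.29 FPKM in DNAM-1- AML cells. In DNAM-1+ and DNAM-1- normal cells Mpo was at 0.25 and 0.26 FPKM. Ctsg, Prtn3, Cd34, Kit, Hoxa9, Elane and Meis1 were also higher in AML spleen in both subsets, and all of these but Kit were below the floor. Kit was at 25.3 and 9.78 FPKM in AML against 17.9 and 7.86 FPKM in normal spleen, and was not called. Hoxa10, at or below 0.05 FPKM, went both ways. Myb went the other way, at 12.4 and 9.97 FPKM in AML against 16.1 and 14.9 FPKM in normal spleen. The part of leukaemia cells in the AML ratios was not tested.

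The subset ratio itself differed between the spleens by amounts that have no test, since 1 library per group leaves no residual for an interaction. The AML minus normal difference of the log2 subset ratio was 0.53 (counting interval 0.10 to 0.95) for Il15ra, 0.53 (0.36 to 0.69) for Il4ra and 0.39 (0.13 to 0.64) for Il21r. In size these exceed 96.0%, 95.9% and 91.7% of all genes tested, whose median was 0.12. It was -0.01 (-0.37 to 0.35) for Il7r and 0.01 (-0.39 to 0.41) for Il9r. For Il4ra and Il21r both subset levels lie closer together in AML spleen, with Il4ra 1.33 times and Il21r 1.63 times higher in DNAM-1- cells there, against 1.94 and 2.15 times in normal spleen.

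The cytokines that these receptors bind were scarce in the NK libraries, and none reached the floor of the test. Il15 was at 4.66 FPKM in DNAM-1+ AML and 2.53 FPKM in DNAM-1- AML cells, and at 4.59 FPKM in DNAM-1+ normal and 2.65 FPKM in DNAM-1- normal cells. Il2 was at 0.30 FPKM in DNAM-1+ AML and 0.35 FPKM in DNAM-1+ normal cells and had no value in DNAM-1- cells, Il7 lay between 0.07 and 0.31 FPKM and Il21 between 0.15 and 0.36 FPKM. Il4, Il9, Il13 and Tslp had no value in any library. Among chains that pair with the members, Crlf2, which joins Il7r in the TSLP receptor, was at 38.1 FPKM in DNAM-1+ AML and 37.9 FPKM in DNAM-1- AML cells, and at 31.2 FPKM in DNAM-1+ normal and 35.0 FPKM in DNAM-1- normal cells, with a limma difference of -0.08 (adjusted p = 0.535). Crlf2 and Il7r were thus at 0.987 and 0.812 to 1 in DNAM-1+ cells of AML and normal spleen, and at 18.1 and 17.0 to 1 in DNAM-1- cells. Il13ra1, which joins Il4ra in the receptor shared by IL-4 and IL-13, fell by 2.04 (limma adjusted p = 0.00982), with 0.76 FPKM in DNAM-1+ AML and 5.42 FPKM in DNAM-1- AML cells, and 0.46 FPKM in DNAM-1+ normal and 5.78 FPKM in DNAM-1- normal cells, and reached the floor through DNAM-1- libraries alone.

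**Figure D4:**
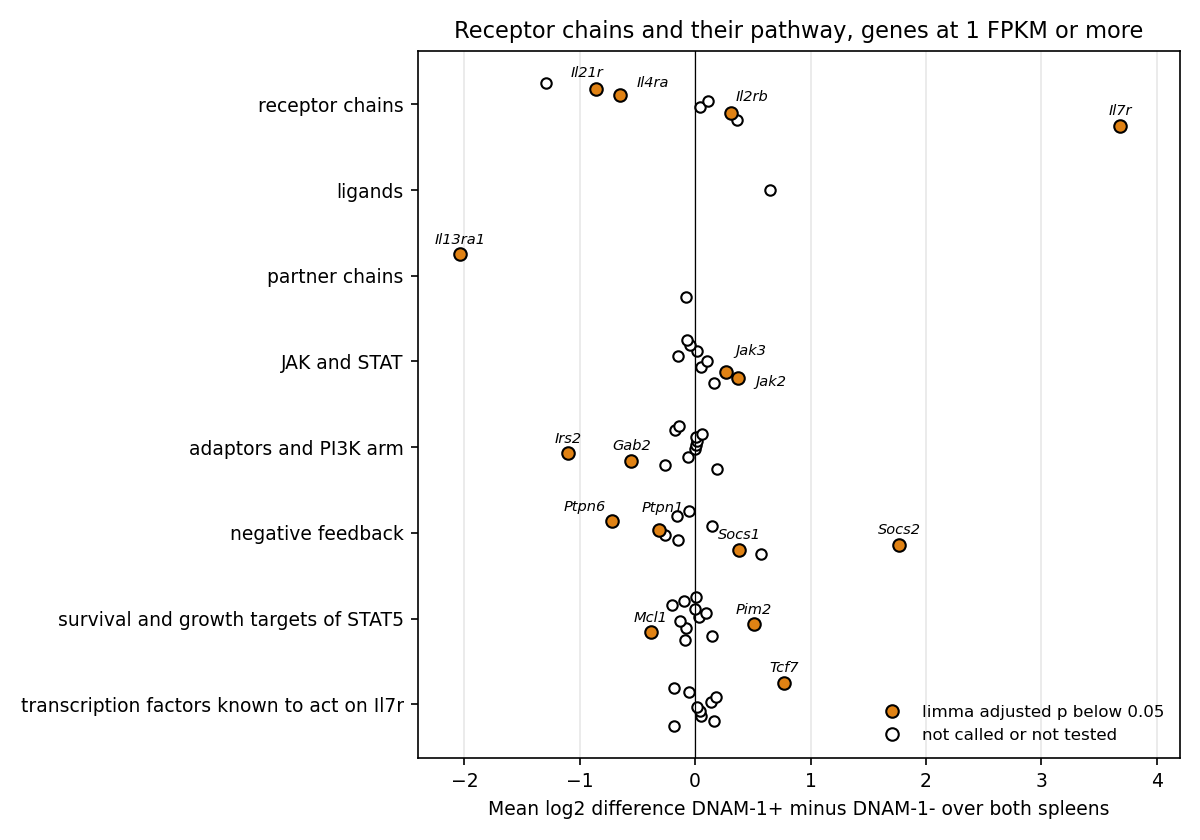
Mean log2 difference between DNAM-1+ and DNAM-1- cells over both spleens for the receptor chains and 7 lists of their pathway, for genes at 1 FPKM or more, with filled points called by limma at an adjusted p below 0.05. Il7r stands alone at 3.68, and of the pathway genes Socs2 lies highest at 1.77 and Il13ra1 lowest at -2.04.

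Downstream of the receptors, most genes were not called, and the called ones went both ways. Their counts stand beside a background of 7.35% of all genes that rose and 8.38% that fell. No list was tested against this background, so the counts do not show that a list differs from it. Of 9 JAK and STAT genes tested, 2 rose and 0 fell (median 0.05): Jak3, the kinase bound to the common gamma chain, by 0.27 (limma adjusted p = 0.0440), and Jak2 by 0.37 (0.0296). Stat5a and Stat5b, which carry the signal of IL-2, IL-7 and IL-15, were not called, at 16.2 to 17.8 FPKM and 29.5 to 34.0 FPKM over the 4 libraries. Of 12 adaptor and PI3K genes tested, 0 rose and 2 fell (median -0.03): Irs2, an adaptor of the IL-4 receptor, by 1.10 (adjusted p = 0.00329) and Gab2 by 0.55 (0.0203). Irs2 was at 6.02 FPKM in DNAM-1+ AML and 11.7 FPKM in DNAM-1- AML cells, and at 4.98 FPKM in DNAM-1+ normal and 14.2 FPKM in DNAM-1- normal cells.

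Of 10 negative feedback genes tested, 2 rose and 2 fell (median -0.10). Socs2, which STAT5 induces and which restrains cytokine signals, rose by 1.77 (SE 0.22, limma adjusted p = 0.00374), with 6.55 FPKM in DNAM-1+ AML and 1.05 FPKM in DNAM-1- AML cells, and 7.27 FPKM in DNAM-1+ normal and 1.63 FPKM in DNAM-1- normal cells, and reached the floor through DNAM-1+ libraries alone. Socs1 rose by 0.38 (adjusted p = 0.0162), and the phosphatase genes Ptpn6 and Ptpn1 fell by 0.72 (0.000875) and 0.31 (0.0197). Ptpn6 was at 120 FPKM in DNAM-1+ AML and 189.8 FPKM in DNAM-1- AML cells, and at 111 FPKM in DNAM-1+ normal and 192 FPKM in DNAM-1- normal cells. Cish, a feedback gene of the IL-15 receptor in NK cells, was at 5.45 FPKM in DNAM-1+ AML and 2.64 FPKM in DNAM-1- AML cells, and at 4.51 FPKM in DNAM-1+ normal and 3.44 FPKM in DNAM-1- normal cells (difference 0.57, adjusted p = 0.130).

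Of 12 survival and growth targets of STAT5 tested, 1 rose and 1 fell (median -0.04). Pim2, a survival kinase, rose by 0.51 (limma adjusted p = 0.0110), and Mcl1, on which NK cells depend for survival, fell by 0.38 (0.0138). Bcl2, the survival gene that IL-7 is known to sustain in lymphocytes, was at 46.2 FPKM in DNAM-1+ AML and 49.1 FPKM in DNAM-1- AML cells, and at 40.5 FPKM in DNAM-1+ normal and 43.1 FPKM in DNAM-1- normal cells, with a difference of -0.09 (adjusted p = 0.409). Of 10 transcription factors known to act on Il7r, 1 rose and 0 fell (median 0.05). Tcf7, which encodes TCF-1, rose by 0.77 (adjusted p = 0.00146), with 185 FPKM in DNAM-1+ AML and 98.7 FPKM in DNAM-1- AML cells, and 173 FPKM in DNAM-1+ normal and 111 FPKM in DNAM-1- normal cells. Foxo1, an activator of Il7r in lymphocytes, was at 24.4 FPKM in DNAM-1+ AML and 27.7 FPKM in DNAM-1- AML cells, and at 23.3 FPKM in DNAM-1+ normal and 26.5 FPKM in DNAM-1- normal cells (difference -0.18, adjusted p = 0.122). Gfi1, a repressor of Il7r in T cells, lay between 18.4 and 21.8 FPKM. The AML contrast called 0 genes of any of these lists. Of the 12 pathway genes called for the subset, Socs2, Ptpn6 and Tcf7 kept their call without each of the 4 libraries in turn. Il13ra1 and Irs2 lost it without the DNAM-1- normal library (adjusted p = 0.0658 and 0.0534), Pim2 held without that library alone (0.0485), and Jak2, Jak3, Gab2, Socs1, Ptpn1 and Mcl1 held in no such fit. Without a floor 0 of the 12 were called, without the trend 6 were, and with NK lineage scaling 9 were, without Jak2, Jak3 and Socs1.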

How the data were processed

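RNA of 4 libraries, 1 per group, was sequenced on the BGISEQ-500 platform, per the labels' protocols, after extraction with an RNeasy kit. Bowtie2 2.2.5 and RSEM appear in the submitters' processing notes without a role, and the build and annotation are not given in the sources used here. The deposited FPKM, per the file headers, stand under NCBI Gene numbers, and genes without a value were taken as 0. Of 17723 numbers, 17668 matched a symbol in the RefSeq table of GRCm38.p6. Members, gene lists and tests were chosen with earlier results of these data known.

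Depth came from the low FPKM of microRNA genes (55 to 100 nt long, less 35 nt), of which 90.3% to 93.9% were whole fragment numbers, 6 at most, to within 0.1 fragment. Approximate fragments of a gene use its longest GENCODE vM21 coding transcript, and intervals from them hold counting error alone, without any variation among mice. The log2 ratios add 1 FPKM.

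limma 3.58.1 (R 4.3.3), with a mean-variance trend and subset and spleen as additive terms, was fitted to 9074 genes at 5 FPKM or more in the highest library. It is two-sided, and a call needs a p below 0.05 after Benjamini-Hochberg adjustment. Its residual is the interaction, so a call does not show that both spleens were alike. The AML term is secondary, since the labels do not tie subsets to mice. Alternatives changed the pseudocount, floor, trend, scaling, gene types or terms, or left out a library, with the tested factor as the sole term. Named genes are all members, 4 checks of the sort, from each pathway list up to 4 called genes or the 2 most abundant, from each of 14 marker lists up to 4 abundant genes and up to 4 defining genes near 0, and the genes nearest to Il7r (6) and to Il4ra, Il21r and Il9r (4 each). Only some of the marker and nearest genes are printed. Itga1, Cxcr6, Trat1, Cish, Crlf2, Stat5a, Stat5b, Bcl2, Foxo1, Gfi1 and the genes of ligands below the floor are named beside these after their values were seen. RefSeq promoters (GRCm38.p6) gave the sequences. Python 3.11.15, numpy 2.4.6, pandas 2.3.3 and matplotlib 3.10.9 were used.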

Additional observations from a re-analysis of the deposited data

Results flagged for a closer look

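For 5 receptor genes a log2 ratio had opposite signs in the 2 backgrounds it was measured in, each with 1 library per group, and none of these differences was tested. The ratio between AML and normal spleen was above 0 in DNAM-1+ and below 0 in DNAM-1- cells for Il4ra (0.27 and -0.26, apart by 0.53), Il21r (0.09 and -0.30, apart by 0.39), Il15ra (0.08 and -0.45, apart by 0.53) and Il2rb (0.09 and -0.04, apart by 0.12). The ratio between DNAM-1+ and DNAM-1- cells was above 0 in AML and below 0 in normal spleen for Il15ra (0.37 and -0.16, apart by 0.53) and Il2rg (0.081 and -0.0036, apart by 0.084). The median size of this difference over all genes tested was 0.12, so those of Il2rb and Il2rg are ordinary in size. Counting error alone spans 0.10 to 0.95 for the Il15ra difference and 0.36 to 0.69 for that of Il4ra.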

How the results depend on the processing

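No analysis paired by mouse was possible because each group has 1 library and the labels identify no mouse. The spleen term of the fit sets the subsets against each other within a spleen, and the fit with subset as the sole term does not. Precision is limited by 1 residual degree of freedom and, for Il7r in DNAM-1- cells, Il9r, Il2ra and Il15ra, by counts of 212 fragments or fewer in a library. Counts of calls moved widely with the settings, and the cause was not tested, apart from the fewer samples or other genes that a fit had by construction. Genes that rose in DNAM-1+ cells (667) came to 0 without a floor, 321 without the trend, 1042 with median scaling, 321 with NK lineage scaling, 331 with subset as the sole term, and 80 to 186 with 1 library left out. Genes that fell (760) came to 434 at a floor of 20 FPKM, 0 without a floor, 1811 with NK lineage scaling, and 263 to 428 with 1 library left out. Of the 2 members that rose, 0 did without a floor, and 1 without the trend, with NK lineage scaling, with subset as the sole term, and with any 1 library left out. Of the 2 that fell, 0 did without a floor, 1 without the trend, 3 with NK lineage scaling (which brings Il9r over the floor), and 0 to 2 with 1 library left out. The 6 genes higher in AML came to 18 at a floor of 20 FPKM, 0 without a floor, 1 without the trend, 13 with NK lineage scaling, 26 among protein-coding genes, 0 with spleen as the sole term and 0 with 1 library left out. The 26 lower in AML came to 17 with 5 FPKM added, 5 at a floor of 1 FPKM, 51 at a floor of 20 FPKM, 0 without a floor, 4 without the trend, 191 with NK lineage scaling, 81 among protein-coding genes, 0 with spleen as the sole term and 0 with 1 library left out. No member was called for AML in any of these fits. Signs turned for uncalled differences. With NK lineage scaling, which moved the median of all genes by -0.13 (subset) and -0.11 (AML), the subset difference was -0.12 for Il2rg and -0.032 for Il15ra, and the AML difference was -0.086 for Il7r, -0.098 for Il2rb, -0.037 for Il2rg and -0.11 for Il4ra. With 5 FPKM added, the AML difference of Il4ra was -0.0019. With 1 library left out, the subset difference ran from -0.026 to 0.10 for Il2rg and from -0.12 to 0.33 for Il15ra. The AML difference, where the left-out library unbalances the subsets by construction, ran from -1.83 to 1.86 for Il7r, from -0.16 to 0.21 for Il2rb, from -0.45 to 0.46 for Il4ra and from -0.64 to 0.42 for Il21r. The log2 subset ratio of Il7r was 4.14 and 4.16 with 0.1 FPKM added and 2.62 in both spleens with 5 FPKM, and that of Il9r -1.74 and -0.62 in AML spleen.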
